A study of Drosophila melanogaster with 4 samples.

Results

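The nuclear pore and nuclear transport genes described here are those whose symbol in the platform annotation begins with Nup and a digit, with 18 further pore and transport genes chosen by name. The rule found 35 of the 11980 named genes, 23 nucleoporins and 12 transport factors, on 36 probes. Of the names in the rule, Mtor, Gp210 and sbr matched no singly named probe and were not analysed here, nor was the channel nucleoporin Nup58. Total RNA of Drosophila melanogaster larvae mutant for invadolysin, which encodes a zinc metalloprotease, was set against that of larvae of the wild-type strain Canton S. The mutant carried the allele 4Y7 of invadolysin, and the sources used here do not describe its lesion. Each of 4 two-channel arrays paired a mutant with a wild-type sample; Cy5 marked the mutant on the first and last replicates (1 and 4), and Cy3 marked it on the others (2 and 3). The series calls these biological replicates. The labels give no tissue, sex, larval age or number of animals per sample, and in such bulk RNA fewer cells of a type and less RNA per cell cannot be told apart.

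The nuclear pore is the channel through which proteins and RNA pass between nucleus and cytoplasm. Its scaffold is built of an outer and an inner ring of nucleoporins, and disordered nucleoporins rich in phenylalanine and glycine line the channel. Receptors of the importin and exportin family carry cargo through it, and the small GTPase Ran, in its GTP form in the nucleus and its GDP form in the cytoplasm, gives the transport its direction. The pore and the Ran cycle serve nuclear transport in general, while single receptors and nucleoporins can be needed for particular cargoes or tissues. Several of these proteins also act on the mitotic spindle and in rebuilding the nuclear envelope after division.

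Every value below is a log2 ratio with the mutant as numerator, so that a value below 0 means less signal in the mutant. The direction is likely from the wording of the titles but is not stated, and all arrays are taken to run the same way. Of 13891 features (named genes and singly tested probes) 114, or 0.821%, passed limma's moderated test at a Benjamini-Hochberg adjusted p of 0.05. The arrays did not agree equally well: across all features Pearson's r was 0.65 between replicates 2 and 3, 0.40 between replicate 1 and each of these, 0.22 between replicates 1 and 4, and 0.039 and 0.041 between replicate 4 and replicates 2 and 3. The Invadolysin probe was at 0.10 ± 0.16 (SD, n = 4; limma adjusted p = 0.761), and whether it lies in the part altered in 4Y7 is unknown.

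The nuclear pore and transport genes lay slightly below wild type in the mutant larvae, and none of them passed the test on its own. In limma 0 of 35 genes were called higher and 0 lower, against 0.821% of all features called in either direction. At an unadjusted p under 0.05 there were 6 genes below and 0 above wild type, where 11.3% of all features were below and 19.2% either below or above. Their median log2 ratio was -0.22 over the 35 gene means, with quartiles of -0.42 and -0.021, beside a median of 0.015 for all features. Of the 35 means 28 (80%) were below 0, against 48.5% of all features. Both values rest on the direction taken for the ratios. With the sign of replicates 2 and 3 turned, 10 of the 35 means were below 0 and the median was 0.15. Among the 35 genes 0 were then called, as were 0 of all 13891 features. Genes of one machinery are not independent of each other, so these shares describe the genes measured and carry no test.

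The genes furthest below wild type were RanGAP, Nup205, Ran, Nup358, Nup107 and Nup35, with mean ratios of 0.592, 0.602, 0.611, 0.647, 0.664 and 0.686 of wild type. These 6 are the genes with an unadjusted p under 0.05, and their limma adjusted p ran from 0.123 to 0.239. With replicates 2 and 3 turned this order did not hold: RanGAP, Nup107, Nup358 and Nup205 had log2 ratios of 0.42, 0.35, 0.20 and 0.16, Ran and Nup35 were at -0.14 and -0.11, and the lowest of the 35 were Nup43, Elys and Rcc1 at -0.31, -0.31 and -0.27. The largest mean in size, 0.76 for RanGAP, was smaller than the smallest among the 114 called features, 1.07. A miss of the threshold does not show that a gene was unchanged. The unadjusted 95% intervals reached a 2-fold decrease for 7 of the 35 genes and a 2-fold increase for 0, and for 28 they lay within 2-fold on both sides.

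**Figure D1:**
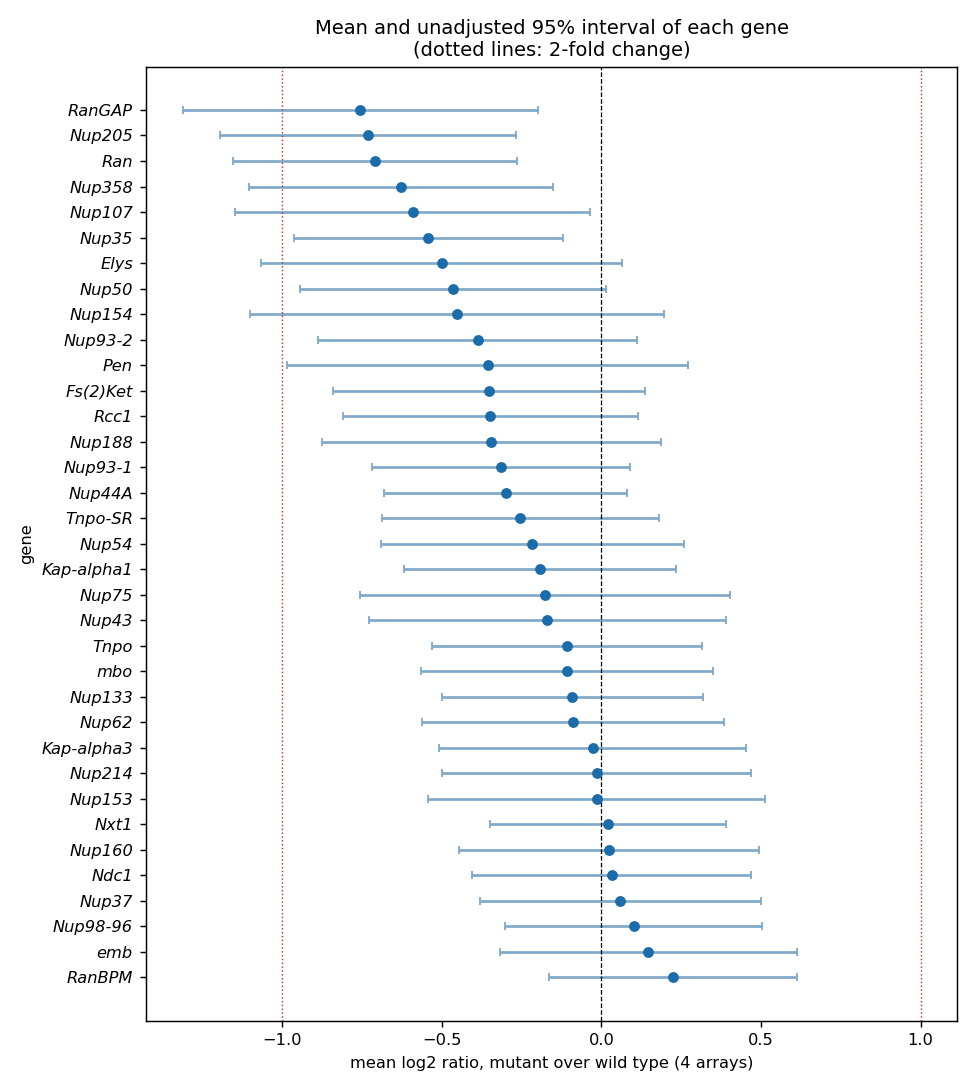
Mean log2 ratio of mutant over wild type on the x axis for each of the 35 genes on the y axis, with bars for the unadjusted 95% interval from limma over 4 arrays and dotted lines at a 2-fold change. Of the 35 means 28 lie below 0, and the intervals of 7 genes cross the 2-fold line on the left.

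Of the Ran cycle, all 3 genes lay below wild type on every array. Ran, the GTPase itself, was at -0.55, -0.50, -0.64 and -1.15 on replicates 1 to 4, a mean of -0.71 ± 0.30 (limma adjusted p = 0.123). Replicates 1 to 3 lay close together and replicate 4 was lowest. RanGAP, the GTPase-activating protein that turns Ran-GTP into Ran-GDP on the cytoplasmic side, was at -0.30, -1.01, -1.34 and -0.38, a mean of -0.76 ± 0.50 (adjusted p = 0.164). Here the split followed the dyes, with the mutant-in-Cy3 arrays (replicates 2 and 3) low and the mutant-in-Cy5 arrays nearer 0. Rcc1, the chromatin-bound exchange factor that loads Ran with GTP, was at -0.79, -0.096, -0.068 and -0.44, a mean of -0.35 ± 0.34 (adjusted p = 0.372). Its order was the opposite of that of RanGAP, with the mutant-in-Cy5 arrays lower. RanBPM, a scaffold protein named for its binding to Ran, was the only one of the 35 genes above 0 on all 4 arrays, at 0.098, 0.44, 0.24 and 0.12, a mean of 0.22 ± 0.16 (adjusted p = 0.482).

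The 6 import receptor genes had means from -0.36 to -0.028, with 0 called. Fs(2)Ket encodes importin beta, the carrier of the classical import pathway, and was at -0.59, -0.43, -0.61 and 0.22 on replicates 1 to 4 (mean -0.35 ± 0.39, adjusted p = 0.389), so that replicate 4 stood apart from the other arrays. Of the adaptors of the importin alpha family, Pen was at -0.012, 0.20, -1.18 and -0.43 (mean -0.36 ± 0.61), a spread larger than its mean. Kap-alpha1 was at -0.19 ± 0.26 and Kap-alpha3 at -0.028 ± 0.37. Tnpo, the transportin gene, and Tnpo-SR, whose product imports SR splicing factors, were at -0.11 ± 0.26 and -0.25 ± 0.28. Each of these 6 genes had values on both sides of 0.

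Both genes of the export side among the 35 had means above 0, though neither was above 0 on all arrays. Of 12 messenger RNA export genes outside the 35, described below, 11 had means below 0. The exportin gene Ranbp21, also outside the 35, had a mean below 0 as well. The gene emb, which encodes the exportin of leucine-rich export signals (CRM1 in other animals), was at 0.027, 0.55, 0.26 and -0.25, a mean of 0.15 ± 0.34 (adjusted p = 0.706). Nxt1, the partner of the messenger RNA export receptor encoded by sbr, was at 0.071, 0.082, -0.081 and 0.010, a mean of 0.021 ± 0.074 (adjusted p = 0.953). This was the smallest spread of the 35 genes, whose SDs over arrays ran from 0.074 to 0.64 with a median of 0.35, against a median of 0.42 for all features.

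**Figure D2:**
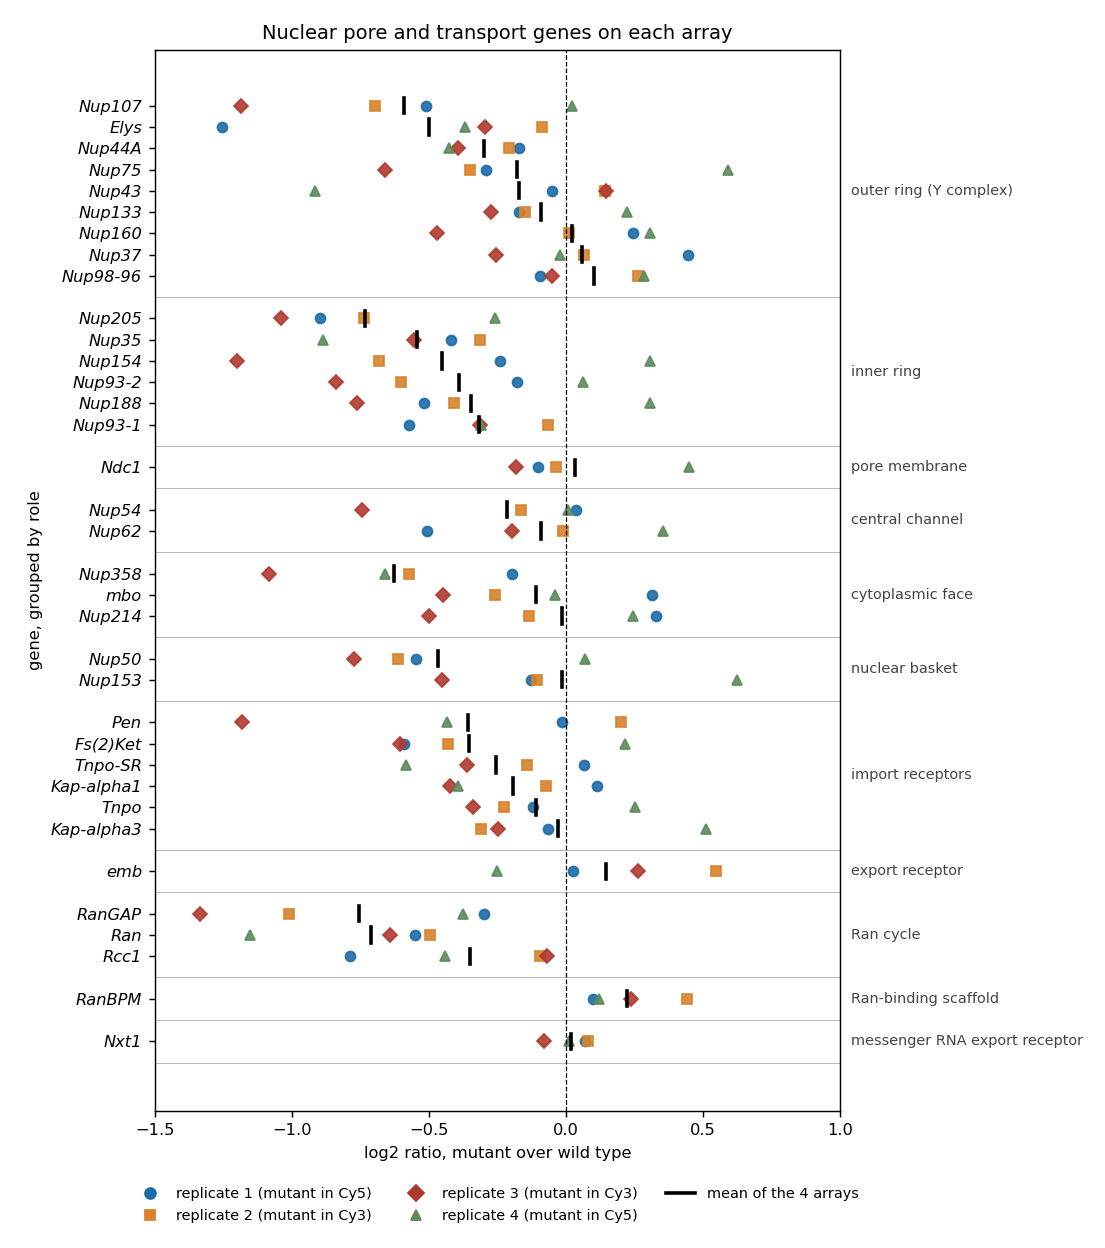
Log2 ratio of mutant over wild type on the x axis for each of the 35 genes on the y axis, grouped by role, with 1 symbol per array and a black bar for the mean of the 4 arrays. The 3 Ran cycle genes lie below 0 on every array, the 6 inner ring genes lie below 0 on replicates 1 to 3, and the symbols of replicate 4 often lie to the right of the others.

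In the pore itself, all 6 inner ring genes had means below 0, with a median of -0.42, and all 6 were below 0 on each of replicates 1 to 3. The inner ring joins the scaffold to the pore membrane and holds the channel nucleoporins in place. Nup205, one of its large scaffold proteins, was at -0.90, -0.74, -1.04 and -0.26, a mean of -0.73 ± 0.34 (adjusted p = 0.125), and was below 0 on all arrays. Nup35, which binds the membrane, was also below 0 throughout, at -0.42, -0.31, -0.55 and -0.89 (mean -0.54 ± 0.25, adjusted p = 0.179), with replicate 4 lowest. Nup188, the paralogue of Nup205, was at -0.52, -0.41, -0.76 and 0.31 (mean -0.34 ± 0.46). Nup154, the fly counterpart of human NUP155, was at -0.24, -0.68, -1.20 and 0.31 (mean -0.45 ± 0.64). In both of these replicate 4 had the opposite sign to the other arrays. The paralogues Nup93-1 and Nup93-2 had similar means, -0.31 ± 0.21 and -0.39 ± 0.41, with the first below 0 on all arrays and the second above 0 on replicate 4.

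The 9 genes of the outer ring, the Y-shaped complex that coats the membrane on both faces of the pore, were more mixed, with 6 means below 0 and 3 above and a median of -0.17. Nup107 was lowest, at -0.51, -0.70, -1.18 and 0.024, a mean of -0.59 ± 0.50 (adjusted p = 0.239). Elys, whose product recruits the Y complex to chromatin when the nucleus is rebuilt after division, was at -1.25, -0.087, -0.29 and -0.37, a mean of -0.50 ± 0.52 (adjusted p = 0.305), with replicate 1 far lower than the others. Nup44A, the fly counterpart of Seh1, which also belongs to a complex that regulates TOR signalling, was measured by 2 probes. They gave -0.26 and -0.34, and their average was at -0.17, -0.21, -0.39 and -0.43 (mean -0.30 ± 0.13, adjusted p = 0.352). The other outer ring genes lay nearer 0. Nup75 was at -0.18 ± 0.54, Nup43 at -0.17 ± 0.51, Nup133 at -0.092 ± 0.22, Nup160 at 0.024 ± 0.35, Nup37 at 0.060 ± 0.29 and Nup98-96, a single gene that yields both Nup98 and the outer ring protein Nup96, at 0.10 ± 0.20. For all 6 the spread between arrays exceeded the mean.

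Ndc1, which encodes a membrane-spanning nucleoporin, was at 0.032 ± 0.28. The channel nucleoporin genes Nup54 and Nup62 were at -0.22 ± 0.36 and -0.090 ± 0.36. On the cytoplasmic face, Nup358, a large protein that in vertebrates anchors RanGAP at the pore, was at -0.20, -0.57, -1.08 and -0.66, a mean of -0.63 ± 0.36 (adjusted p = 0.172), below 0 on all arrays. The other genes of this face lay close to 0: mbo, the Nup88 gene, was at -0.11 ± 0.33, and Nup214, with which it restrains nuclear export by emb, was at -0.015 ± 0.38. In the nuclear basket, Nup50 was at -0.55, -0.61, -0.77 and 0.071 (mean -0.47 ± 0.37, adjusted p = 0.27) and Nup153 at -0.13, -0.11, -0.45 and 0.63 (mean -0.015 ± 0.46). In both genes replicates 1 to 3 lay below 0 and replicate 4 above.

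The arrays disagreed on these genes. The median of the 35 was -0.17, -0.15, -0.45 and 0.010 on replicates 1 to 4, a mean of -0.19 ± 0.19 (SD over arrays, n = 4), and 25, 27, 32 and 16 genes lay below 0. Without replicate 3 the median of the 35 gene means was -0.12 in place of -0.22. The median of all features stayed between -0.0024 and 0.015 on the same arrays. Replicate 3 held the lowest of a gene's values for 22 of the 35 genes (26.1% of all features), and replicate 4 the highest for 16 (37.1% of all features). On replicates 1 to 3 together 22 genes were below 0 on every array, against 26.1% of features. Of those 22, 13 (59.1%) were above 0 on replicate 4, as were 42.9% of the features below 0 on replicates 1 to 3. On all 4 arrays 9 genes were below 0 (14.9% of features): Ran, Nup205, RanGAP, Nup358, Nup35, Elys, Nup44A, Nup93-1 and Rcc1.

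**Figure D3:**
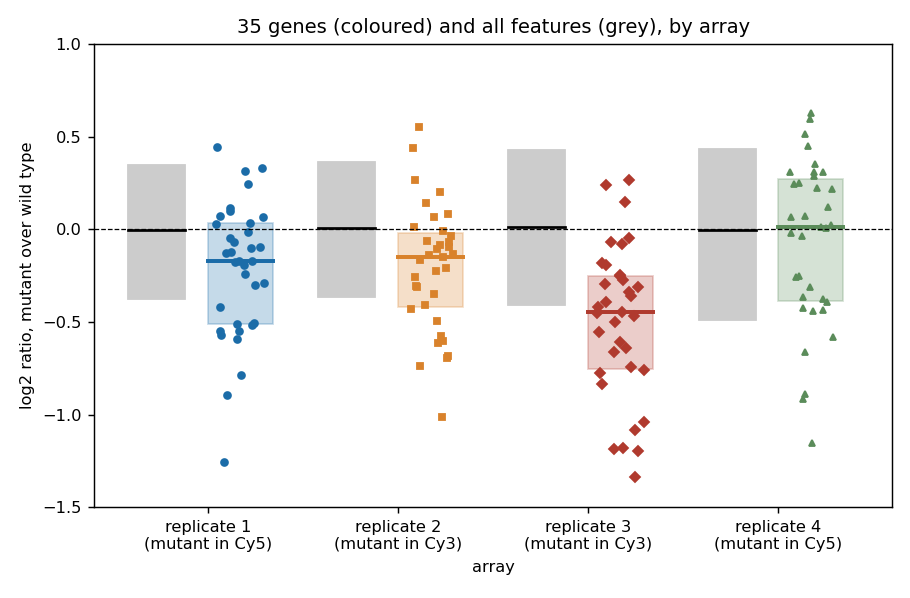
Log2 ratio of mutant over wild type on the y axis for each of the 4 arrays on the x axis; coloured points are the 35 genes with a box from their first to their last quartile and a line at their median, and grey boxes with black lines give the quartiles and median of all 13891 features. The median of the 35 genes is -0.45 on replicate 3 and 0.010 on replicate 4, while that of all features is near 0 on each array.

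Across the 35 genes Pearson's r was 0.81 between replicates 2 and 3 (the arrays with the mutant in Cy3), 0.41 between replicates 1 and 2, 0.23 between 1 and 3, 0.19 between 1 and 4 and 0.049 and 0.056 between replicate 4 and replicates 2 and 3. These are correlations across genes, and arrays of one dye orientation share any dye bias of the probes. On the Cy5-labelled mutant arrays the median of the 35 was -0.10, and on the Cy3-labelled ones -0.28. Over the Cy3 arrays alone limma called 5 genes lower, RanGAP, Nup205, Nup50, Nup93-2 and Nup107 (adjusted p from 0.0393 to 0.0494), where 9.53% of all features were called lower. Over the Cy5 arrays alone it called 0 of the 35 genes, and only 4 of all 13891 features. No difference between the orientations passed a test, the smallest adjusted p among the 35 genes for a dye effect being 0.295, for RanGAP.

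With arrays weighted by how well each fitted the rest, limma called 12 of the 35 genes lower and 2, emb and RanBPM, higher. That setting called 43.8% of all features in either direction, beside 14 of the 35 genes, and 21.9% of all features lower, beside 12 of the 35. The weights were 0.52, 5.47, 1.51 and 0.232 for replicates 1 to 4, so that replicate 2 counted most in these calls.

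The chromosome on which a gene lies was no part of the rule. The 6 X-linked genes, Ran, Nup205, Nup35, Elys, Nup93-1 and Nup153, all had means below 0 with a median of -0.52, and the 29 autosomal genes had a median of -0.18 with 22 means below 0. Features of the X as a whole lay lower too: the median of its 1770 features was -0.13, between -0.17 and -0.10 on every array, against 0.041 for the 9556 autosomal features. After each chromosome arm's median was subtracted on each array, Nup205 was at -0.60, Ran at -0.57 and Nup35 at -0.41. Elys lay at -0.36 and Nup93-1 at -0.18, while Nup153 turned to 0.12. The median of the 35 genes was then -0.21. Of these genes 0 were called, against 113 of all 13891 features. The part of this X-wide difference in the values of the 6 genes was not otherwise tested. Nup37 and Nup358 are direct neighbours on 3R in the RefSeq table of the Release 6 assembly, yet Nup358 was at -0.63 ± 0.36 and Nup37 at 0.060 ± 0.29. On the X, Elys (-0.50 ± 0.52) neighbours the exportin gene Ranbp21 (-0.50 ± 0.20), and both were below 0 on all arrays.

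Other genes of nuclear transport, taken from lists of neighbouring functions, mostly had means on the same side with 0 called. The order of their arrays differed from that of the nuclear pore and transport genes, which were lowest on replicate 3 and highest on replicate 4. Of 12 further transport receptors and Ran factors 10 had means below 0 (median -0.20). Their medians were -0.19, -0.020, -0.31 and -0.50 on replicates 1 to 4, lowest on replicate 4, and 11, 6, 8 and 8 genes lay below 0. Ipo9, an importin gene, was at -0.73 ± 0.27, msk, the importin 7 gene, at -0.65 ± 0.40, and Ranbp21, the exportin 5 gene, at -0.50 ± 0.20 (limma adjusted p = 0.109, 0.172 and 0.191). Each was below 0 on all 4 arrays. Of 4 further pore components, all had means below 0 (median -0.32). Their medians on replicates 1 to 4 were -0.70, -0.22, -0.15 and -0.31, lowest on replicate 1. Aladin was at -0.66 ± 0.68 (limma adjusted p = 0.266). Gle1, a messenger RNA export factor of the cytoplasmic face, was at -0.40 ± 0.39 (0.332). Sec13, an outer ring protein shared with COPII vesicle coats, was at -0.24 ± 0.12 (0.444).

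Of 12 messenger RNA export genes 11 had means below 0 (median -0.25). The list medians were -0.10, -0.26, -0.32 and -0.44 on replicates 1 to 4, again lowest on replicate 4. Ref1, which encodes the adaptor that hands messenger RNA to the export receptor, was at -0.94, -0.85, -1.06 and -0.43 (mean -0.82 ± 0.27, adjusted p = 0.0893). Hel25E, the UAP56 helicase gene of the same step, was at -0.17, -1.39, -1.78 and 0.11 (mean -0.81 ± 0.92, adjusted p = 0.279), far lower on the Cy3 arrays than on the Cy5 arrays. Nxf3, a member of the export receptor family, was at 0.48, 0.50, 0.46 and 0.062 (mean 0.37 ± 0.21, adjusted p = 0.288), with replicate 4 apart from the others. Of 9 lamina and inner nuclear membrane genes 6 had means below 0, with a median of -0.090. On replicates 1 to 4 the medians of these genes were -0.21, 0.030, -0.33 and 0.0059, lowest on replicate 3. In that list kuk, which encodes a farnesylated nuclear envelope protein, was at -1.10, -1.26, -2.37 and -0.51 (mean -1.31 ± 0.77, adjusted p = 0.101) and Msp300, the nesprin that links nuclei to the cytoskeleton and is abundant in muscle, at -1.03 ± 0.61 (0.119). The gene bocks, of a protein of the inner nuclear membrane, was at 0.33 ± 0.13 (0.314).

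**Figure D4:**
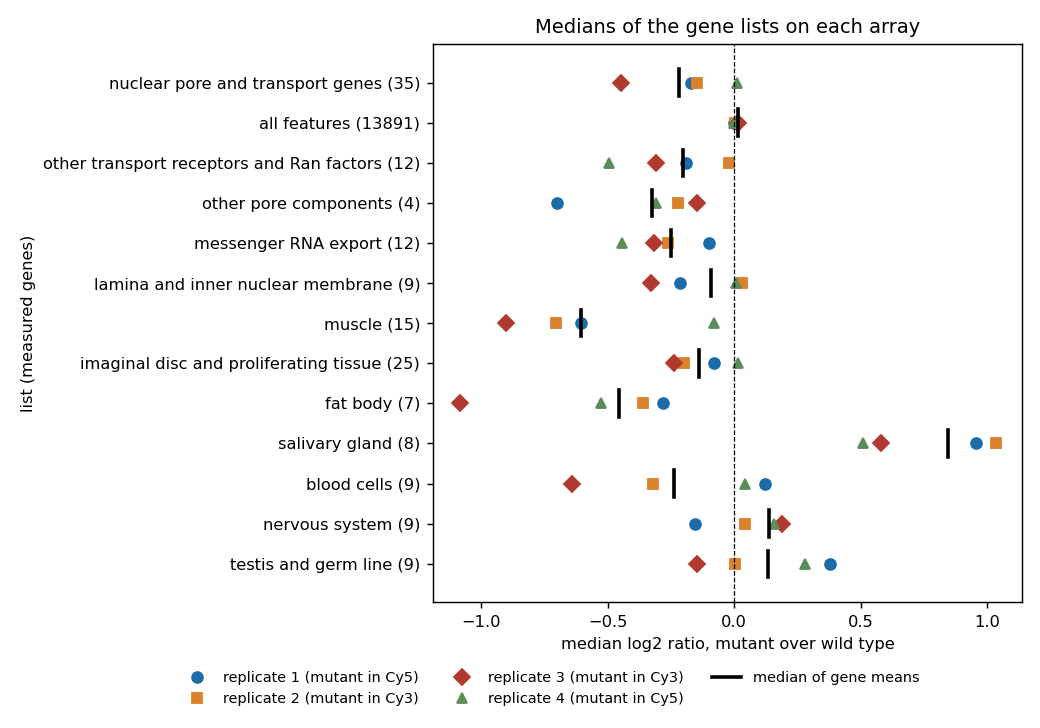
Median log2 ratio of mutant over wild type on the x axis for each gene list on the y axis, with 1 symbol per array, a black bar at the median of the gene means, and the number of measured genes in brackets. The 35 nuclear pore and transport genes (median -0.22) lie between all features (0.015) and the muscle list (-0.61), and in both gene lists replicate 3 is lowest and replicate 4 highest.

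Markers of larval tissues also lay off 0, and their part in the values of the nuclear pore and transport genes was not tested. Ratios hold no levels, so which tissues contributed RNA cannot be read from them. Of 15 muscle markers measured (of 19 listed) 14 had means below 0 and 0 were called, with list medians of -0.61, -0.70, -0.90 and -0.081 on replicates 1 to 4. The lowest and highest arrays, replicates 3 and 4, were the same as for the nuclear pore and transport genes. Markers of imaginal discs and proliferating cells, measured for 25 of 32 genes with 16 means below 0 and 0 called, had medians of -0.078, -0.20, -0.24 and 0.016, again lowest on replicate 3 and highest on replicate 4. Of 7 fat body markers measured (of 10) 5 had means below 0 and 2, Fbp1 and Fbp2, above (0.26 and 0.27). Of these markers 1, Lsd-1, the gene of a lipid droplet coat protein, was called lower (-1.24 ± 0.22, limma adjusted p = 0.0455). The list medians were -0.28, -0.36, -1.09 and -0.53, but single markers varied widely between arrays. Lsp2 ran from -6.4 on replicate 3 to 3.9 on replicate 1, and Fbp2 from -2.0 to 3.5 on the same arrays. The median SD of the list was 1.28, against 0.42 for all features. Of 8 salivary gland markers measured (of 12) 1 had a mean below 0 and 0 were called, with medians of 0.96, 1.03, 0.58 and 0.51. The medians over gene means of the blood cell (9 genes of 10), nervous system (9 of 10) and testis and germ line (9 of 15) markers were -0.24, 0.14 and 0.13, with 0 called in each. Replicate 3 was lowest for blood cells too (0.12, -0.32, -0.64 and 0.043 on replicates 1 to 4) and for testis and germ line (0.38, 0.0023, -0.15 and 0.28). In the nervous system list (-0.15, 0.043, 0.19 and 0.16) replicate 1 was lowest.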

How the data were processed

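The authors' deposited table holds 1 log2 ratio per probe (14569) and array, with 0 missing values. The base was taken as 2 from the range of the values. Normalization within arrays, scanner steps and direction: not given in the sources used here. Background and saturation were not examined because no channel brightness was used, and precision is limited by the number of arrays.

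Of the probes, 12658 had 1 symbol in the platform annotation, 96 several and 1815 none. Probes of a gene were averaged per array (436 genes with more than 1 probe), which gave 13891 features. The departure of each feature's mean from 0 was assessed by limma (version 3.58.1, R version 4.3.3) through lmFit and eBayes (prior degrees of freedom 3.275; two-sided), and p-values were adjusted by Benjamini and Hochberg's method over all features at 0.05. The fit was tested on simulated data. Errors are SDs over 4 arrays, intervals are unadjusted 95% limma intervals, and ratios are 2 raised to the mean. Summaries and plots used Python 3.11.15, pandas 2.3.3, numpy 2.4.6 and matplotlib 3.10.9.

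All genes of the rule are named, with Invadolysin and the 3 members of each neighbouring list with the smallest p. Emphasis among them was set after the values were seen. The members and lists were chosen with earlier results of these data known. Alternatives were median centring, scale and quantile normalization, single probes, a dye term, turned ratios, array weights, leaving out features over 5 in size, each dye orientation alone and leaving out each replicate. Centring on chromosome arms and the autosomal genes alone were added after the data were seen.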

Additional observations from a re-analysis of the deposited data

Results flagged for a closer look

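Nxf3, taken from the messenger RNA export list, had 1 array far from the others. Replicate 4 was at 0.062 while replicates 1 to 3 lay between 0.46 and 0.50. The gap was 0.93 of the whole range, above Dixon's 95% critical value for 4 values. Chance passes this bound in about 1 of 20 groups, and 0 of the 35 nuclear pore and transport genes and 1 of the 13 other named genes passed it.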

How the results depend on the processing

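The count of 0 calls higher and 0 lower among the 35 genes held in limma under median centring, scale and quantile normalization, single probes, a dye term, turned ratios, without features over 5 in size, over the Cy5 arrays, centred on chromosome arms, and without each replicate in turn (0 to 0 for both directions). It changed with array weights, to 2 higher and 12 lower, and on the Cy3-labelled mutant arrays alone, to 0 higher and 5 lower. The cause of these changes was not tested beyond the weights and background shares given above. Several of the settings that kept the count called few or no features at all. A dye term, turned ratios and leaving out replicate 1 called 0 of 13891, and the Cy5 arrays 4. Leaving out replicate 2, 3 or 4 called 19, 17 and 21 features. In such settings 0 calls among 35 genes says little about these genes. The smallest adjusted p of the 35 was 0.0727 (RanGAP) with a dye term and 0.0568 (Nup205) without replicate 4. The median of -0.22 ranged from -0.27 to -0.12 when 1 replicate was left out, was -0.18 for the autosomal genes alone, and became 0.15 with the ratios of replicates 2 and 3 turned.

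No paired analysis was possible because each array already sets 1 mutant against 1 wild-type sample and there is 1 group of arrays.

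Signs of single genes turned as follows, with 0 of these values past the threshold, and the cause was not tested. With the Cy3 arrays turned, the log2 ratio was 0.17 for Fs(2)Ket, 0.053 for Kap-alpha1, 0.25 for Kap-alpha3, 0.35 for Nup107, 0.12 for Nup133, 0.26 for Nup153, 0.49 for Nup154, 0.24 for Nup188, 0.16 for Nup205, 0.30 for Nup214, 0.20 for Nup358, 0.0013 for Nup44A, 0.23 for Nup50, 0.24 for Nup54, 0.012 for Nup62, 0.33 for Nup75, 0.33 for Nup93-2, -0.0064 for Nup98-96, 0.13 for Pen, -0.11 for RanBPM, 0.42 for RanGAP, 0.17 for Tnpo, -0.26 for emb, 0.24 for mbo, 0.24 for Aladin, 0.78 for Hel25E, -0.035 for Invadolysin, 0.45 for Msp300, -0.11 for Nxf3, 0.13 for Ref1, -0.10 for bocks and 0.50 for kuk. Over the Cy5 arrays it was 0.22 for Kap-alpha3, 0.026 for Nup133, 0.25 for Nup153, 0.035 for Nup154, 0.29 for Nup214, 0.022 for Nup54, 0.15 for Nup75, 0.066 for Tnpo, -0.11 for emb and 0.14 for mbo. Over the Cy3 arrays it was -0.11 for Ndc1, -0.23 for Nup160, -0.093 for Nup37 and 0.14 for Nup43. With array weights it was -0.055 for Ndc1, -0.057 for Nup160 and 0.098 for Nup43. Centred on chromosome arms it was 0.12 for Nup153, -0.0053 for Nup160 and -0.0084 for Nxt1. Leaving out each replicate in turn gave values on both sides of 0 for Nup153 (-0.23 to 0.13), Nup160 (-0.071 to 0.19), Kap-alpha3 (-0.21 to 0.066), Nup214 (-0.13 to 0.15), Nup37 (-0.069 to 0.16), Nup62 (-0.24 to 0.050), mbo (-0.25 to 0.0058), Ndc1 (-0.11 to 0.10) and Nup43 (-0.27 to 0.080).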
